A study of Mus musculus with 4 samples.

Results

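The endoderm cells of mouse embryos at E5.5, shortly after implantation, were compared with the endoderm cells of blastocysts reactivated from diapause. Endoderm cells were chosen by their own transcripts: a cell with at least 1000 molecule counts (UMIs) was called endoderm when Sparc, Col4a1, Lamb1, Srgn, Gata4, Sox17, Cubn and Amn together had at least 3 UMIs and at least 60% of the UMIs of the endoderm, epiblast and trophoblast marker sets. The rule gave 305 endoderm cells of 677 barcodes in the Reactivated library and 3155 of 9560 in the E5.5 library, together 3460 of the 14529 barcodes of the series. Embryos were wild type, of the strain B6C3F1/J, and cells of whole embryos were freed with TrypLE and loaded on a BD Rhapsody microwell instrument. The Reactivated library came from 200 to 250 flushed blastocysts and is labelled as stage EDG9.5 with 30 h of E2 (estradiol) added. The E5.5 library came from 50 embryos taken out of their implantation sites with forceps. Embryos were pooled within a library and each stage has 1 library, so stage, way of collection, pool and library cannot be told apart, and no difference below has a replicate check. EDG7.5 and EDG9.5 are diapause libraries of the same strain, with 588 and 905 endoderm cells, and their values are given as reference levels.

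The primitive endoderm of the blastocyst gives rise to visceral endoderm and parietal endoderm. Visceral endoderm is an absorptive and secretory epithelium around the egg cylinder: it takes up maternal proteins through the receptor pair Cubn and Amn, and it makes lipoproteins and carrier proteins that the liver makes later in life. Parietal endoderm lies on the inner face of the trophoblast and lays down a thick basement membrane, for which it makes Sparc, laminins and type IV collagen in quantity. At the distal tip of the egg cylinder a patch of visceral endoderm secretes antagonists of Nodal and WNT and then moves to the future anterior side.

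Levels are given as CPM, the UMIs of a gene over all UMIs of the endoderm cells of a library, scaled to a total of 1000000, so they are shares of the RNA counted and not amounts per cell. The sums held 4699350 UMIs in Reactivated and 29323865 in E5.5, with a median of 14262 and 8891 UMIs per endoderm cell. All intervals are exact 95% intervals that cover counting error only. Log2 ratios are E5.5 over Reactivated with 10 CPM added to both sides, which pulls the ratios of low genes towards 0. The Reactivated and E5.5 libraries shared 8 barcodes, 1 of them between endoderm cells. Scrublet called 1 doublet among the Reactivated and 154 among the E5.5 endoderm cells, and these were kept. Markers of other cells were low in endoderm but not equal in the libraries. The 10 trophoblast markers summed to 48.9 CPM in Reactivated endoderm and 153 CPM in E5.5 endoderm, against 4637 CPM in E5.5 trophoblast. Among them Hand1 had 0 UMIs in Reactivated and Dppa1 had 0 in E5.5. The 7 epiblast markers summed to 539 and 318 CPM, most of it from Utf1 with 518 and 277 CPM. Immune markers summed to 14.7 and 5.46 CPM and erythroid markers to 0.851 and 0.784 CPM, and Ptprc and the adult haemoglobin genes Hba-a1, Hba-a2, Hbb-bs and Hbb-bt were at 0 in both libraries. The decidual stroma genes Col1a1, Col1a2, Col3a1 and Dcn had 386 UMIs in Reactivated endoderm, of which 380 lay in 1 cell; without it the counts of genes given below as 405 higher and 331 lower would be 411 and 331.

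Endoderm was 45.9% (42.1 to 49.8) of the 664 cells with a lineage name in Reactivated and 39.1% (38.05 to 40.2) of 8066 in E5.5. The embryos were collected in different ways, and the part of collection in these shares was not tested. Both libraries carried the genes that define endoderm, and the genes of the rule were within 2-fold. Sparc, a secreted matrix protein and one of the defining markers, was at 4720 CPM in Reactivated and 3289 CPM in E5.5. Cubn was at 1448 and 1966 CPM, and Amn at 1072 and 811 CPM. Since these genes chose the cells, their values describe the classes and nothing more. Near the threshold of the rule, 26 E5.5 cells had 60 to 65% of marker UMIs from the endoderm set and 11 cells had 55 to 60%, and no Reactivated cell fell in either range. Of 18 endoderm markers outside the rule, all 18 were measured. Gata6, a factor that specifies primitive endoderm, was at 383 CPM in Reactivated and 313 CPM in E5.5. Dab2, an endocytic adaptor, was at 3932 and 3655 CPM, and the scavenger receptor Lrp2 at 1339 and 1222 CPM. The lysosomal protease Ctsh, the basement membrane protein Nid2 and the lipid carrier Apoe were at least 2-fold higher in E5.5, whereas the water channel Aqp8 and the collagen-modifying enzyme P4ha2 were at least 2-fold lower. The median log2 ratio of the 18 markers was -0.12, beside 0.07 over all measured genes.

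Within endoderm, the balance of visceral and parietal genes differed. For each cell, the UMIs of Cubn and Amn were taken as a share of the UMIs of Cubn, Amn, Sparc and Srgn, in cells with at least 5 UMIs of these 4 genes. The median share was 0.252 in Reactivated and 0.379 in E5.5, beside 0.0253 in EDG7.5 and 0 in EDG9.5. Cells with a share of at least 0.5 were 0 of 305 in Reactivated, or 0% (0 to 1.20), and 617 of 3150 in E5.5, or 19.6% (18.2 to 21.0). The E5.5 cells covered a wider range, from 0 to 0.82, against 0 to 0.462 in Reactivated. A full range also depends on the number of cells and the UMIs per cell, which differed. The lower and upper quartiles were 0.267 and 0.471 in E5.5, and 0.2 and 0.308 in Reactivated. Of the E5.5 cells 454 had a share under 0.2, 1282 a share of 0.2 to 0.4 and 1414 a share of 0.4 or above, against 75, 223 and 7 in Reactivated. These genes belong to the rule, so the shares are a description. All numbers of cells depend on the cut, since 1258 of the E5.5 cells lay between 0.4 and 0.6.

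**Figure D1:**
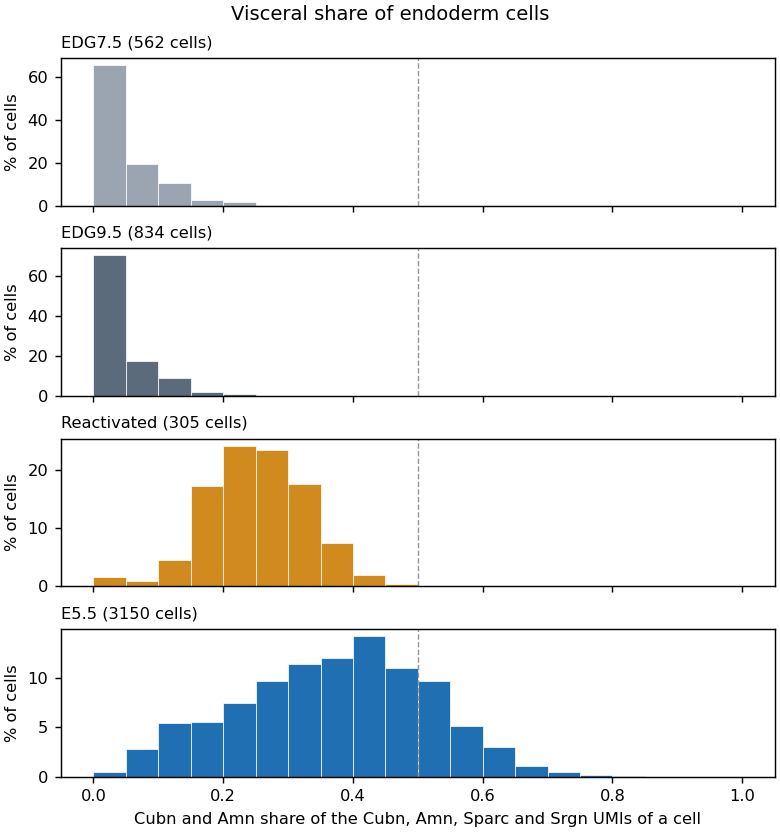
Share of Cubn and Amn among the UMIs of Cubn, Amn, Sparc and Srgn in each endoderm cell (x axis, 0 to 1), as a percent of cells per bin (y axis), with 1 panel per library and a dashed line at 0.5. Reactivated cells form a single hump around 0.252, while E5.5 cells reach from 0 to 0.82.

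Of 25437 gene names, 8170 had a mean of at least 10 CPM over the 2 endoderm sums and were counted as measured. At least 2-fold higher in E5.5 endoderm were 405 genes, 4.96% of those measured, and at least 2-fold lower were 331 genes, 4.05%. The differences upward were larger: 103 genes were at least 4-fold higher and 25 at least 4-fold lower. The high end included secreted plasma proteins and imprinted genes, and the low end proteins of the endoplasmic reticulum (ER) and genes of the early embryo. With 1 CPM added in place of 10, the counts were 643 and 506. With the measured genes limited to a mean of at least 50 CPM, they were 176 and 199 of 3759.

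**Figure D2:**
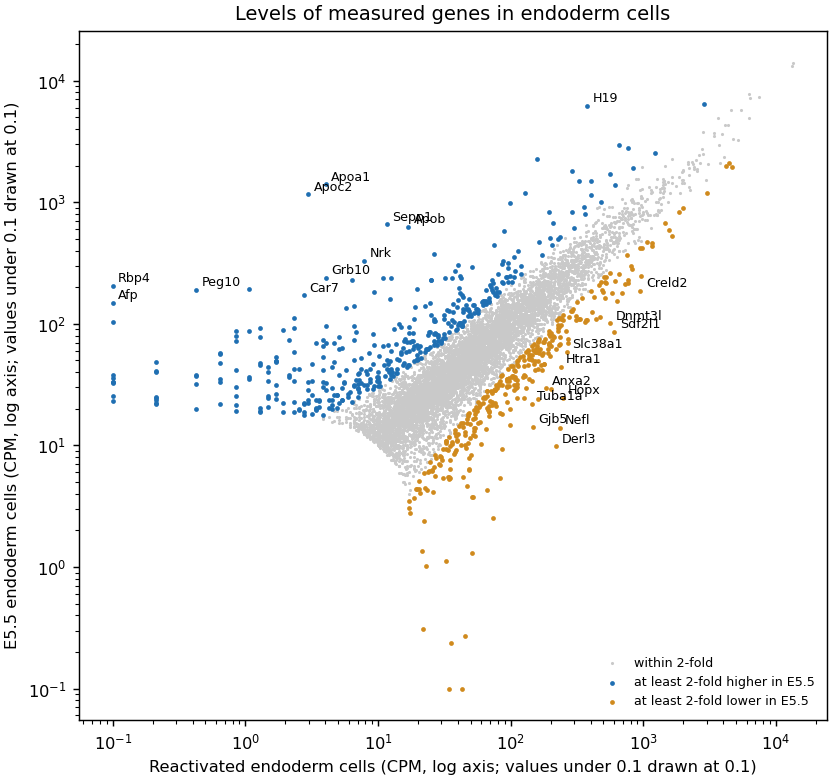
Level of each measured gene in Reactivated endoderm (x axis, CPM, log scale) and in E5.5 endoderm (y axis, CPM, log scale); blue points are at least 2-fold higher in E5.5 and orange points at least 2-fold lower, with names beside genes at either end of the ratios. Apoa1 and Apoc2 lie far above the diagonal, at 4.04 and 2.98 CPM in Reactivated and 1407 and 1159 CPM in E5.5, and Derl3 lies below it, at 220.0 and 9.79 CPM.

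Secreted plasma proteins had the highest median of the 34 lists. All 14 measured members were at least 2-fold higher in E5.5, with a median log2 ratio of 3.04. The sum over the list was 1908 CPM (1869 to 1948) in Reactivated and 11263 CPM (11225 to 11302) in E5.5. A further 7 members in the files were under the minimum; they do not enter the count and the median, while the sum covers all 21 members in the files. With no minimum the median was 1.91. In EDG7.5 and EDG9.5 endoderm the sum was 1002 and 891 CPM. Apoa1, the main protein of high-density lipoprotein, was at 4.04 CPM in Reactivated and 1407 CPM in E5.5, which is 348-fold higher (223 to 578). Apoc2, the activator of lipoprotein lipase, was at 2.98 and 1159 CPM. Apob, the structural protein of the larger lipoproteins, was at 16.8 and 629.5 CPM, and Mttp, which loads lipid onto it, at 106 and 352.5 CPM. These genes were thus near 0 or at a low level in the reactivated blastocyst and abundant after implantation.

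Carrier proteins and a protease inhibitor differed in the same direction. The plasma retinol carrier Rbp4 had 0 UMIs in Reactivated endoderm. Its E5.5 level was 205 CPM, 321-fold above a floor of 3 counts in Reactivated endoderm, and the exact interval of the ratio begins at 261. The fetal albumin-like carrier Afp likewise had 0 UMIs in Reactivated. Its E5.5 level of 148 CPM was 232-fold above the same floor, with an interval that begins at 189. Sepp1, the plasma selenium carrier, was at 11.7 and 657 CPM. Part of the list was already well above the diapause level in the reactivated blastocyst. Ttr, which carries thyroid hormone and Rbp4, was at 0.605 CPM in EDG7.5, 8.48 CPM in EDG9.5, 127 CPM in Reactivated and 1189 CPM in E5.5. The trypsin inhibitor Spink3 was at 9.07, 66.0, 653 and 2951 CPM in the same order. Apoe differed from both patterns, with 861, 692, 837 and 1924 CPM. The E5.5 transcripts lay in many cells: with each cell thinned to 1000 UMIs, Apoa1 was found in 63.0% of E5.5 endoderm cells and 0.328% of Reactivated endoderm cells. After the same thinning, its share in E5.5 epiblast and trophoblast cells, which should lack it, was 0.797% and 1.02%. In Reactivated 1 endoderm cell, 0 epiblast cells and 1 trophoblast cell had an Apoa1 UMI after thinning. Without thinning the endoderm share was 85.9% in E5.5. Epiblast had 6.02% and trophoblast 6.04% there, at median depths of 8676 and 9049 UMIs. In Reactivated the unthinned shares were 3.61% of endoderm, 0.485% of epiblast and 1.96% of trophoblast cells.

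Part of the solute carriers, and fewer of the endocytic genes, were higher in E5.5. Of 16 measured solute carriers, 8 were at least 2-fold higher and none lower, and a further 8 in the files were under the minimum. The median log2 ratio was 0.97, which was 0.59 with no minimum and 2.055 over members with a mean of at least 50 CPM. The lactate and pyruvate transporter Slc16a1 was at 290 CPM in Reactivated and 1821 CPM in E5.5, while EDG7.5 and EDG9.5 endoderm had 198 and 173 CPM. Slc7a8, an amino acid exchanger, was at 25.1 and 229.6 CPM, and the zinc transporter Slc39a5 at 6.597 and 96.5 CPM. The glucose transporter Slc2a2 had 2 UMIs in Reactivated and was at 37.4 CPM in E5.5. Among 18 endocytic and apical membrane genes 5 were at least 2-fold higher, 2 lower and 11 in between, and the list summed to 8970 CPM in Reactivated and 9009 CPM in E5.5. The microvillus protein Vil1 was at 5.11 and 78.4 CPM and the IgG receptor Fcgrt at 3.83 and 65.8 CPM, whereas the receptor chaperone Lrpap1 was at 947 and 420.5 CPM. The receptor Lrp2 and its adaptor Dab2 were within 2-fold.

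Some members of the lysosome, iron and antioxidant lists were higher in E5.5. The counts here stand beside 4.96% of all measured genes at least 2-fold higher and 4.05% lower. Of 31 measured lysosome and autophagy genes 3 were at least 2-fold higher and none lower, with a median log2 ratio of 0.25. The protease Ctsb was at 405 CPM in Reactivated and 1497 CPM in E5.5, and the acid lipase Lipa at 13.8 and 51.3 CPM. Of 20 measured iron, heme and metal genes 5 were at least 2-fold higher, none lower and 8 below 0, with a median of 0.18. The iron-storage genes Ftl1 and Fth1 were at 559 and 1703 CPM and at 2856 and 6402 CPM, whereas the metallothionein Mt1 was at 2506 and 2207 CPM. Of 21 glutathione and detoxification genes, 5 were at least 2-fold higher and 1 lower, with a median log2 ratio of 0.82. Gpx3, a secreted glutathione peroxidase, was at 40.0 and 305.5 CPM, and Gstm1, a glutathione transferase, at 33.0 and 129 CPM. In contrast, Gstm2 was at 33.6 and 5.49 CPM. Of 8 measured retinoid genes 4 were at least 2-fold higher, among them Cyp26a1, which breaks down retinoic acid, at 163 and 474 CPM. A further 12 retinoid genes in the files were under the minimum. The median log2 ratio of the list was 0.815, and from 0.11 to 1.035 under other settings.

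Imprinted genes, many of which act on growth of the embryo and placenta, formed the other group with large ratios. Of 16 measured members 10 were at least 2-fold higher in E5.5 and none lower, and a further 6 in the files were under the minimum. The median log2 ratio was 1.68, or 0.98 with no minimum level. H19, a maternally expressed non-coding RNA, was at 376 CPM (359 to 394) in Reactivated and 6196 CPM (6167 to 6224) in E5.5. Its neighbour Igf2, a growth factor expressed from the paternal copy, was at 36.4 and 238 CPM. Grb10, an adaptor that restrains growth, was at 4.04 and 238 CPM, and Cdkn1c, a cell cycle inhibitor, at 1.06 and 87.1 CPM. Peg10, a gene derived from a retrotransposon, had 2 UMIs in Reactivated and an E5.5 level of 191 CPM, 448-fold higher (124 to 3701). Meg3 was at 114 and 397 CPM. Snrpn, at 16.4 and 13.1 CPM, and the amino acid transporter Slc38a4, at 41.9 and 24.1 CPM, were lower within 2-fold.

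Several of these imprinted genes were also abundant in trophoblast of the same E5.5 library. H19 was at 9073 CPM there, Grb10 at 150 CPM and Peg10 at 129 CPM. The trophoblast markers Hand1, at 33.0 CPM in 421 cells, and the giant cell hormone Prl3d1, at 35.8 CPM with 547 of its 1049 UMIs in 1 cell, were found in E5.5 endoderm and not in Reactivated endoderm. With endoderm cells limited to at least 80% of marker UMIs from the endoderm set, the log2 ratio of H19 was 4.010, that of Hand1 1.53 and that of Prl3d1 0.79, against 4.005, 2.10 and 2.19 over all endoderm cells. Within E5.5 endoderm H19 was at 2161 CPM in cells with a Cubn and Amn share under 0.2, 5408 CPM at 0.2 to 0.4 and 7939 CPM at 0.4 or above. The summed trophoblast markers were at 158, 152.5 and 153 CPM in the same bands. Single markers were not level across them: Hand1 was at 61.3, 30.3 and 28.1 CPM, Prl3d1 at 179, 27.0 and 6.51 CPM, and Rhox6, a homeobox gene of trophoblast, at 38.7, 71.4 and 83.7 CPM. The part of trophoblast RNA in the imprinted genes was not tested.

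Genes of the distal and anterior visceral endoderm separated into a group that was higher and a group that was lower. Of 14 members, all measured, 7 were at least 2-fold higher in E5.5 and 3 at least 2-fold lower. On the high side stood the transcription factors Otx2, at 9.36 CPM in Reactivated and 183 CPM in E5.5, Gsc, at 0.213 and 22.5 CPM, and Lhx1, at 65.5 and 191 CPM. The secreted antagonists Cer1, at 0.851 and 78.7 CPM, Sfrp5, at 1.28 and 91.6 CPM, and Sfrp1, at 38.1 and 270 CPM, stood there as well. Cer1 binds Nodal, BMP and WNT ligands, and the Sfrp proteins bind WNT ligands. On the low side were Dkk1, a WNT co-receptor antagonist, at 377 CPM in Reactivated and 107 CPM in E5.5, Lefty1, a Nodal antagonist, at 194 and 67.2 CPM, and the homeobox factor Hhex, at 196 and 67.7 CPM. Reactivated endoderm thus had Dkk1, Lefty1 and Hhex at 194 CPM or more, with Cer1, Sfrp5 and Gsc at 1.28 CPM or less.

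The higher genes of this group were found in a minority of cells. After thinning to 1000 UMIs, Otx2 was found in 13.7% of E5.5 endoderm cells and Cer1 in 6.21%, against 0.984% and 0.328% of Reactivated endoderm cells. Unthinned shares were 35.5% and 17.4% in E5.5. Within E5.5, the 0.2 to 0.4 band had the most of both, with Otx2 at 125, 283 and 109.5 CPM and Cer1 at 68.6, 128 and 38.0 CPM from the lowest to the highest band. Lefty1 also had its highest E5.5 level in that band, at 62.4, 112 and 28.4 CPM. With cells of the 0.2 to 0.4 band compared between libraries, the log2 ratio of Lefty1 was -0.70 in place of -1.40.

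Signalling genes around this patch differed in several pathways. All 14 measured BMP pathway and ID genes were above 0 and 7 were at least 2-fold higher, beside 4.96% of all measured genes. The median log2 ratio was 1.02, or 0.56 with no minimum level. A further 10 members in the files were under the minimum, while low genes such as Smad6 and Bmp2 passed it through their E5.5 level. Among the targets of the pathway, Id3 was at 32.1 CPM in Reactivated and 237 CPM in E5.5, Id2 at 87.9 and 329 CPM, and the inhibitory mediator Smad6 at 1.06 and 36.8 CPM. The ligand Bmp2 was at 6.17 and 27.7 CPM. In the Nodal list 3 of 13 measured members were at least 2-fold higher and 3 lower. The activin antagonist Fst was at 1.91 and 89.4 CPM, and the feedback antagonist Lefty2 at 45.1 and 0.273 CPM. Within E5.5 endoderm Fst was at 633 CPM in cells with a share under 0.2, and at 27.5 and 3.44 CPM in the bands above. Nodal itself was at 35.1 and 48.2 CPM.

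Among the genes that were lower in E5.5 were ER proteins of folding, quality control and the unfolded protein response, the programme by which a cell raises its folding capacity; Derl3, Sdf2l1 and Creld2 were among the 12 lowest ratios. Of 33 measured ER and secretion genes, 7 were at least 2-fold lower, none was at least 2-fold higher and 31 were below 0, with a median log2 ratio of -0.64. The list summed to 31574 CPM (31414 to 31735) in Reactivated and 17998 CPM (17950 to 18047) in E5.5. The Reactivated sum was also above the diapause libraries, which had 11492 CPM in EDG7.5 and 11698 CPM in EDG9.5. The main ER chaperone Hspa5 was at 4690 CPM in Reactivated and 1949 CPM in E5.5, beside 2010 CPM in EDG7.5 and 1953 CPM in EDG9.5. The lectin chaperone Calr was at 4181 and 1996 CPM, the secreted stress factor Manf at 1648 and 526 CPM, and Sdf2l1, a partner of Hspa5, at 605 and 86.4 CPM. The translocon and signal sequence receptor genes differed less, with Ssr2 at 697 and 672 CPM and Sec61b at 459 and 434 CPM. Canx, the membrane-bound relative of Calr, was at 961 and 1074 CPM.

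The lowest of these 12 ratios was that of Derl3, which helps to move misfolded proteins out of the ER. It was at 220.0 CPM (207 to 234) in Reactivated and 9.79 CPM (8.69 to 10.99) in E5.5, 22.5-fold (19.7 to 25.7) lower, and at 23.6 and 17.8 CPM in EDG7.5 and EDG9.5. Creld2, a secreted ER stress protein, was at 951 and 187 CPM in Reactivated and E5.5, and at 102 and 104 CPM in the diapause libraries. Herpud1, a part of the ER degradation complex chosen after its values were seen, was at 470 and 113 CPM, and at 124 and 102 CPM in diapause. After thinning, Derl3 was found in 20.3% of Reactivated and 0.983% of E5.5 endoderm cells, and unthinned in 77.4% and 8.49%. The list was also lower in E5.5 epiblast, with a median log2 ratio of -0.29, and near 0 in trophoblast, at 0.01. Within E5.5 endoderm the list sum was highest in cells with a Cubn and Amn share under 0.2, at 27418 CPM, against 16831 and 16607 CPM in the other bands.

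**Figure D3:**
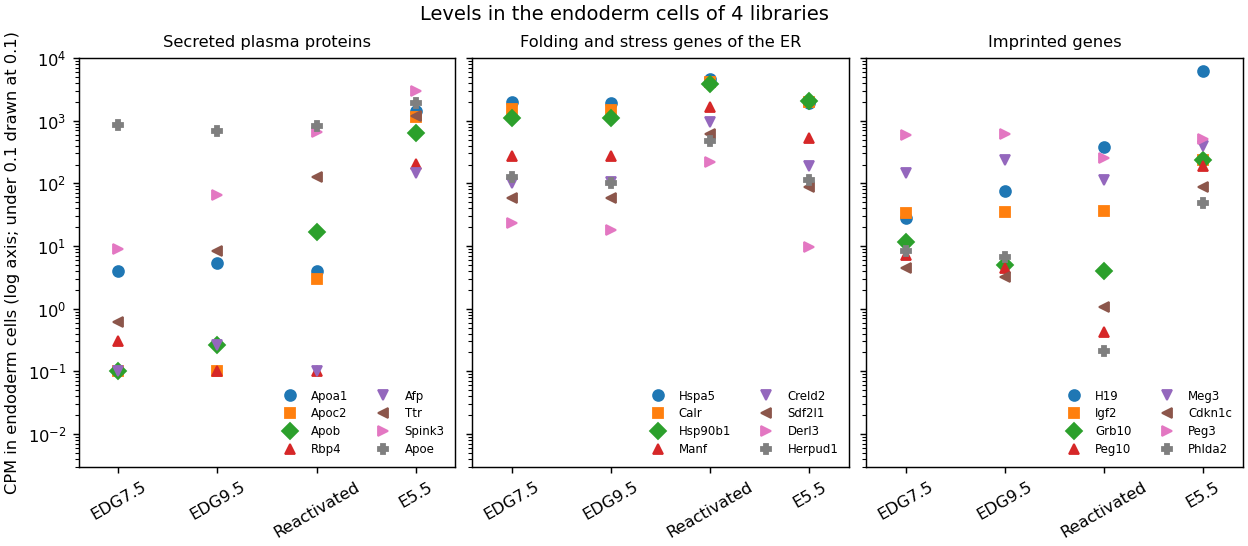
Levels in endoderm cells (y axis, CPM, log scale) of 8 secreted plasma proteins, 8 ER genes and 8 imprinted genes in the 4 libraries (x axis). Plasma proteins are highest in E5.5, ER genes are highest in Reactivated, where Hspa5 reaches 4690 CPM, and H19 reaches 6196 CPM in E5.5.

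Promoters of several of these ER genes hold a known sequence, the ER stress response element, which is shown here for the genes with the lowest ratios. RefSeq promoters of GRCm38.p6, from 250 bases before to 50 bases after each start, were searched on both strands for CCAAT and CCACG with 9 bases between them, and for the second form of the element, ATTGG and CCACG with 1 base between them. The first form overlaps the CCAAT box, which 37.4% of all promoters hold. It was found in 0.119% of all 32851 promoters and in 6 of 29 promoters of the ER list, for which 27 of 33 genes had an entry. The second form was found in 0.0365% of all promoters. Either form was found in 8 of the 176 genes with a promoter entry among the 331 that were at least 2-fold lower. It was found in 0 of 310 among the 405 that were at least 2-fold higher, and in 22 of 6081 among all measured genes. A sterol response element, TCAC and CCAC with 1 base between them, was found in 1 of 19 promoters of the cholesterol list and in 1.24% of all promoters. Stretches upstream of the start are printed 5′ to 3′ on the strand of the gene, with the element in capitals; where it lies on the opposite strand the capitals begin with CGTGG. Derl3, Creld2, Dnajc3, Hspa5 and Calr show the first form and Herpud1 the second, and Canx shows the first form in a gene that was not lower.
Derl3, chr10:75893227-75893275, plus strand: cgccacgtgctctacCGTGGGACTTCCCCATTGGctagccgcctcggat
Creld2, chr15:88819505-88819553, plus strand: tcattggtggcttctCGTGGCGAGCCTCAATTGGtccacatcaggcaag
Herpud1, chr8:94386362-94386402, plus strand: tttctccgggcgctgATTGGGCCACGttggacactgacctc
Dnajc3, chr14:118937812-118937860, plus strand: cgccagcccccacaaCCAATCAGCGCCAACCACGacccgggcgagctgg
Hspa5, chr2:34772010-34772058, plus strand: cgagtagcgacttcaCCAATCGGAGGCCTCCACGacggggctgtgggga
Calr, chr8:84847060-84847108, minus strand: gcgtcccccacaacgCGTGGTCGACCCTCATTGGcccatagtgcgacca
Canx, chr11:50325785-50325833, minus strand: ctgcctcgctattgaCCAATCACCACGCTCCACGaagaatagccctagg

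All 7 stretches lie upstream of the RefSeq start of the gene named. In Hspa5 the element ended 46 bases before the start, in Herpud1 41 bases and in Derl3 137 bases. Promoters of a chromosome that is not reported here were left out of the counts that follow. Of 20 measured genes with either form upstream, 7 were at least 2-fold lower, 0 at least 2-fold higher and 15 below 0. Their median log2 ratio was -0.74. The 7 lower genes were Derl3, Creld2, Herpud1, Dnajc3, Hspa5, Alg12 and Calr. Dnajc3, a co-chaperone and inhibitor of the kinase Eif2ak3, was at 827 CPM in Reactivated and 281 CPM in E5.5. Alg12, a mannosyltransferase gene on the other strand whose stretch is that of Creld2, was at 39.6 and 10.8 CPM, and its log2 ratio of -1.25 was 0.022 with cells thinned to 1000 UMIs. Of the 20 genes 14 were not on the ER list, and their median was -0.30. Derl3, Herpud1, Dnajc3 and Alg12 were among these 14, so the list does not hold every gene that acts in the ER. The other members of the 14 ran from -0.86 (Syvn1) to 0.29 (Rbm39). A match is a description of letters, and whether any factor binds there was not tested.

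Cholesterol synthesis and amino acid genes were lower in E5.5 as well. Of 21 measured cholesterol genes 8 were at least 2-fold lower and none higher, with a median log2 ratio of -0.90. Cyp51 was at 425 CPM in Reactivated and 166 CPM in E5.5, and Sqle at 313 and 115 CPM. Sqle was at 112.5 and 114 CPM in EDG7.5 and EDG9.5, so E5.5 was close to the diapause level. The same list had a median of -0.43 in epiblast and 0.36 in trophoblast. Of 17 measured genes of amino acid supply and the integrated stress response, 7 were at least 2-fold lower and 1 higher. The glutamine transporter Slc1a5 was at 144 and 33.7 CPM and the cationic amino acid transporter Slc7a1 at 138.5 and 34.9 CPM, whereas Phgdh, the first enzyme of serine synthesis, was at 55.1 and 133 CPM. The central factor Atf4 was at 305 and 275.5 CPM. Among the 12 lowest ratios was Slc38a1, another glutamine transporter, at 266 and 58.5 CPM.

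Genes of the early embryo were also lower in part. Of 17 measured genes on the naive pluripotency and early embryo list, 8 were at least 2-fold lower and none higher, with a median log2 ratio of -0.94, which was -0.21 over members with a mean of at least 50 CPM. Tcl1 was at 35.3 CPM in Reactivated and 0.239 CPM in E5.5, and Nr0b1 at 21.7 and 0.307 CPM. Klf4 was at 127 and 50.3 CPM. In EDG7.5 the list summed to 7516 CPM and in EDG9.5 to 6604 CPM, against 1800 CPM in Reactivated and 1444 CPM in E5.5, so Reactivated was closer to E5.5 than to diapause on this list. Dnmt3l, a partner of the de novo DNA methyltransferases, was at 561 and 101 CPM in Reactivated and E5.5. The intermediate filament gene Nefl was at 234 and 13.9 CPM, and the homeodomain gene Hopx at 246 and 24.5 CPM. Both were higher still in diapause endoderm, Nefl at 710 and 721.5 CPM and Hopx at 337 and 364 CPM.

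Gap junction genes differed among themselves, and keratins were higher in E5.5. The connexin gene Gjb5 was at 147 CPM in Reactivated and 14.2 CPM in E5.5. Gjb2, of the same family, had 3 UMIs in Reactivated and was at 56.2 CPM in E5.5. Gja1, the connexin of many embryonic tissues, was at 426 and 460.0 CPM. The simple-epithelium keratins Krt8 and Krt18 were at 9.36 and 67.2 CPM and at 41.7 and 247 CPM. Of the 20 measured junction and keratin genes 7 were at least 2-fold higher and 2 lower. The basement membrane list was mixed in the same way: 5 of 18 members were at least 2-fold higher, led by Fbln1 at 50.6 and 295 CPM, and 2 were lower. These were P4ha2 and the heparan sulphate proteoglycan Hspg2, the latter at 112 and 24.6 CPM. Col4a1 and Lamb1, which belong to the rule, were within 2-fold.

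Most endoderm transcription factors were within 2-fold. Of 14 measured members 3 were at least 2-fold higher and 1 lower. Foxa1, a pioneer factor of endoderm, was at 0.638 CPM in Reactivated and 32.9 CPM in E5.5, and Maf at 24.9 and 119 CPM. Hnf4a, a regulator of apolipoprotein genes, was at 83.6 and 156 CPM. Foxa2 was at 105 and 93.0 CPM. The only member at least 2-fold lower was Foxq1, at 722 and 212 CPM.

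Cell cycle and ribosome biogenesis genes were within 2-fold, while part of the ribosomal protein genes was lower. None of 29 G2 and M phase genes, 27 S phase genes and 30 ribosome biogenesis genes passed 2-fold in either direction, with median log2 ratios of 0.07, 0.17 and 0.03. Cdk1, the kinase that starts mitosis, was at 319 CPM in Reactivated and 309 CPM in E5.5, and Mcm5, a subunit of the replicative helicase, at 302 and 310.4 CPM. Of 33 nuclear genes of oxidative phosphorylation 1 was at least 2-fold higher, and of 18 glycolysis genes 1 was higher and 2 lower, with medians of -0.15 and 0.01. Gapdh was at 1398 and 1549 CPM. Of 126 ribosomal protein gene names 24 were at least 2-fold lower and none higher, with a median of -0.39, and together they made up 10.99% of UMIs in Reactivated and 8.45% in E5.5.

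**Figure D4:**
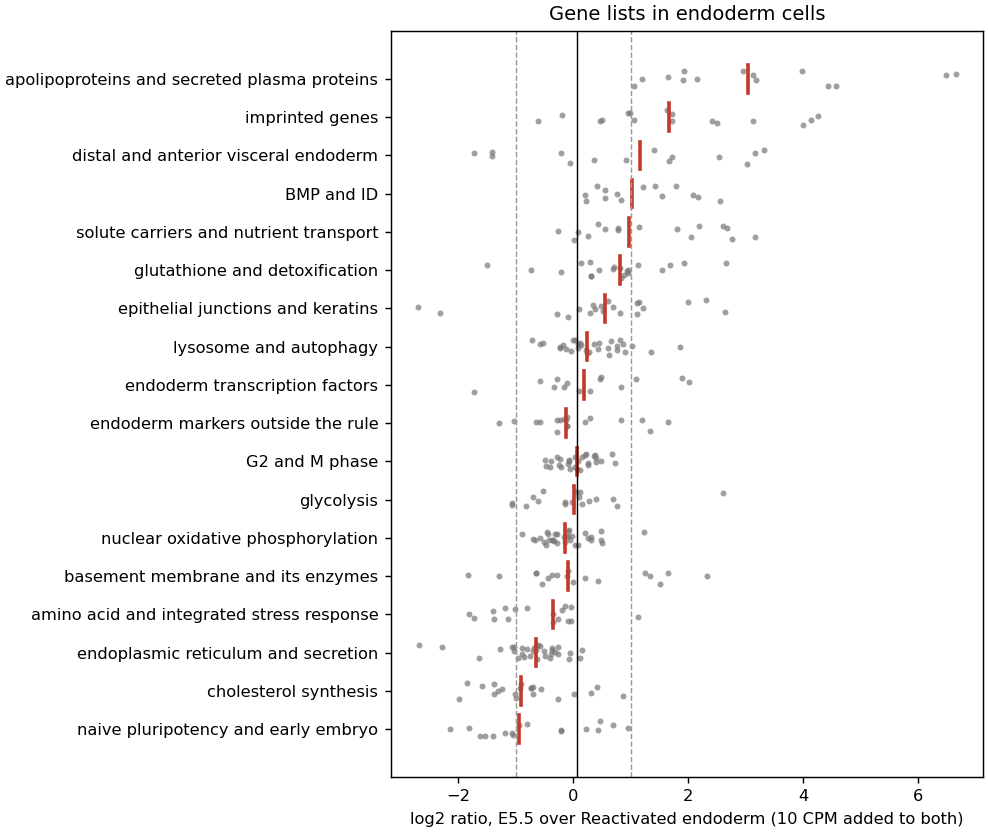
Log2 ratio of E5.5 over Reactivated endoderm (x axis, 10 CPM added to both) for each measured member of 18 gene lists (grey points), with the list median in red, 2-fold marked by dashed lines and the median of all measured genes, 0.07, by a solid line. Secreted plasma proteins lie to the right with a median of 3.04, ER and cholesterol genes to the left with medians of -0.64 and -0.90, and G2 and M phase genes lie around 0.07.

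The other lineages of the same libraries had smaller median ratios for the secreted proteins and mixed ones for the imprinted genes. The secreted plasma protein list had a median log2 ratio of 0.06 in epiblast and 0.28 in trophoblast, against 3.04 in endoderm. Its members were those measured in endoderm, and the 10 CPM added holds ratios of genes low in the other lineages near 0. The list sum was 617 CPM in Reactivated and 200 CPM in E5.5 epiblast, and 156 and 251 CPM in trophoblast. Within epiblast, Apoe was at 493 and 96.4 CPM. Apob was at 3.57 CPM in E5.5 epiblast and 3.94 CPM in E5.5 trophoblast. Car7, a carbonic anhydrase, was at 2.77 and 172 CPM in endoderm and at 2.38 and 1.12 CPM in the other E5.5 cells. The kinase gene Nrk was at 7.87 and 329 CPM in endoderm, and at 68.3 CPM in E5.5 trophoblast. The imprinted list had medians of 1.68 in endoderm, 0.33 in epiblast and 1.05 in trophoblast. On the low side, Dnmt3l and Nefl were lower in epiblast too, from 1615 to 238 CPM and from 536 to 92.9 CPM.

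**Figure D5:**
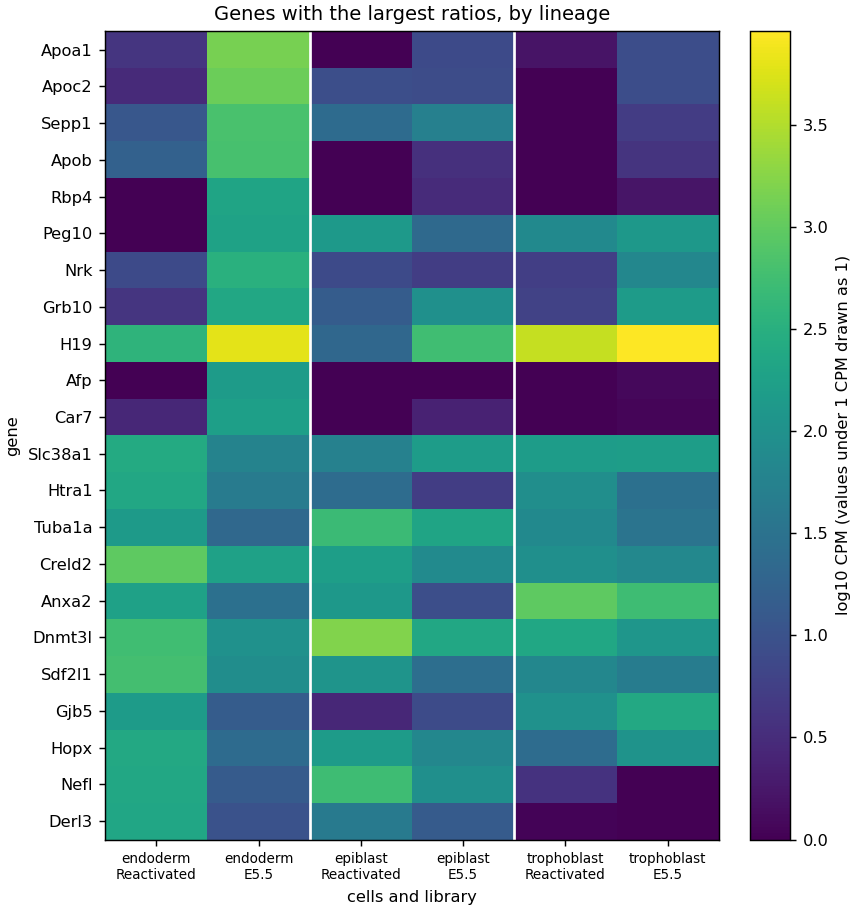
Level (colour, log10 CPM, values under 1 CPM drawn as 1) of genes with the highest and lowest ratios that the naming rule picked (rows) in endoderm, epiblast and trophoblast cells of Reactivated and E5.5 (columns). Apoa1, Apoc2, Apob and Afp are brightest in E5.5 endoderm, whereas H19 is bright in trophoblast of both libraries, at 4052 and 9073 CPM.

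Among E5.5 endoderm cells, the bands of Cubn and Amn share differed. Of the parietal genes, Sparc was used by the rule and the cut, and Lamb1 by the rule only. The band under 0.2 had the most of both, Sparc at 9848 CPM against 2762 and 2061, and Lamb1 at 3407 CPM against 444 and 204. It also had the least Apoa1, at 347 CPM against 1489 and 1609 CPM, and the least Ttr, at 272.5 CPM against 1193 and 1423 CPM. In Reactivated, where the top band held 7 cells, Lamb1 was at 684.5, 610 and 410.0 CPM and Ttr at 122, 129 and 137 CPM from the lowest to the highest band. The receptor Lrp2 was at 834, 1482 and 2581.5 CPM in the same Reactivated bands, and at 857, 1036 and 1482 CPM in those of E5.5. When the 0.2 to 0.4 band alone was compared between the libraries, the median log2 ratio was 2.94 for secreted plasma proteins, 1.70 for imprinted genes and -0.77 for ER genes, against 3.04, 1.68 and -0.64 over all endoderm cells. That comparison was chosen after the values were seen.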

How the data were processed

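Single-cell RNA of whole mouse embryos was analysed in 4 libraries, 1 per stage label; E4.5, which the series text names, was not analysed here. The deposited files hold whole-number counts per gene and cell barcode, read here as UMI counts. Per the submitters' processing notes, the authors worked on mm10 with STAR 2.7.1a, featureCounts 1.6.4 of Subread and UMI-tools 1.0.1. Neither the gene annotation nor the strand setting nor the choice of barcodes is stated (not given in the sources used here), so antisense and overlapping genes may share counts. The libraries held 9270833 UMIs (Reactivated), 87507141 (E5.5), 9620232 (EDG7.5) and 10994918 (EDG9.5).

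Lineages were called by marker sums, with at least 3 UMIs and 60% of marker UMIs; 13 Reactivated and 1494 E5.5 barcodes stayed unnamed. The other sets were Tdgf1, Sox2, Nanog, Fgf4, Utf1, Pou3f1 and Slc7a3 for epiblast and Gata2, Gata3, Tspan8, Dppa1, Rhox6, Rhox9, Cdx2, Hand1, Ascl2 and Elf5 for trophoblast. For each lineage and library the UMIs of all its cells were added up gene by gene, and the sum over all genes was the divisor of CPM. With 1 library per stage no test was made. Intervals are exact Poisson (CPM), Clopper-Pearson (shares) and conditional binomial (ratios) intervals at 95%; they cover counting error only. Against 0 UMIs a ratio is given over a floor of 3 counts in the summed class, and the exact interval of the ratio begins lower. Doublets were called with Scrublet in scanpy 1.11.5 and kept; Scrublet marked 1 of 677 and 279 of 9560 barcodes. Members and gene lists were chosen with earlier results of these data known. The genes named are the 12 highest and 12 lowest log2 ratios among genes with 50 or more UMIs over both sums and 100 CPM in 1 of them, without genes that are marker-set, haemoglobin, predicted, mitochondrially encoded or for ribosomal proteins; in each list, the 3 members with the highest mean CPM and those with the highest and lowest ratio; and the 8 endoderm markers. Some genes that this rule picks are not reported here. Other genes were chosen after their values were seen. On simulated counts for the 8170 measured genes, 200 of which were given a 2-fold difference, 95.2% of the intervals covered the true ratio. The simulated counts were independent Poisson counts, which is what the intervals assume. The simulation therefore checks the calculation only, and it leaves out the clustering of UMIs in single cells. The alternatives were other cell filters, marker purity, doublet removal, TMM factors from edgeR 4.0.16, other totals, thinned cells, means over cells, other added CPM, other gene filters and other cuts of the visceral share.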

Additional observations from a re-analysis of the deposited data

Results flagged for a closer look

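In 4 of the genes with the most extreme ratios, endoderm and another lineage of the same 2 libraries differed in opposite directions by at least 2-fold. None of these differences was tested, since each lineage has 1 sum per library. Peg10 had a log2 ratio of E5.5 over Reactivated of 4.27 in endoderm and -2.16 in epiblast, where it was at 136 and 22.6 CPM. Slc38a1 had -2.01 in endoderm and 1.34 in epiblast, at 54.9 and 155 CPM there. Gjb5 had -2.70 in endoderm and 1.19 in trophoblast, at 101 and 245 CPM there. Hopx had -2.89 in endoderm and 1.77 in trophoblast, at 24.8 and 109 CPM there.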

How the results depend on the processing

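No paired analysis was possible because each stage has 1 library. The planned comparison of cells with a Cubn and Amn share of at least 0.5 gave no value, as no Reactivated cell reached that share. With 1 CPM added in place of 10, 643 genes were at least 2-fold higher and 506 lower. With a mean of at least 50 CPM, 176 were higher and 199 lower of 3759 genes. At 80% of marker UMIs, endoderm was 50.4% of named cells in Reactivated and 44.0% in E5.5, against 45.9% and 39.1% at 60%. The share of visceral-type cells was 16.4% in Reactivated and 62.2% in E5.5 with a cut at 0.333, and 1.30% in E5.5 with a cut at 0.667. The median of endoderm markers outside the rule was -0.32 in the 0.2 to 0.4 band, against -0.12. Of 34 list medians under 14 alternatives, 475 of 476 values stayed within a range of member ratios around the median (order statistics), with a largest shift of 1.135. In 4 lists the median passed 2-fold, and 50 of their 56 alternative values still did. With no minimum level, plasma proteins were at 1.91, imprinted genes at 0.98, BMP genes at 0.56 and retinoid genes at 0.16, and retinoid genes were at 0.11 in the 0.2 to 0.4 band. Of 226 named genes, 120 passed 2-fold, and 1656 of their 1680 alternative values still did; over all of them 486 of 3164 values moved, by up to 3.261, and 1 reversed. With cells thinned to 1000 UMIs, Alg12 had a log2 ratio of 0.022, against -1.25, and the cause was not tested. Col3a1 had -0.06 without the 1 Reactivated cell with stromal collagens, against -2.15. Depth limits the Reactivated sum: 3 UMIs there are 0.638 CPM, against 0.102 CPM in E5.5.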

Other observations

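Some lists outside the main groups had members past 2-fold in E5.5 endoderm. Over all measured genes 4.96% were at least 2-fold higher and 4.05% lower. Of 19 measured FGF and ERK feedback genes 1 was at least 2-fold higher and 2 lower, with a median log2 ratio of -0.06. Dusp6, a phosphatase of ERK, was at 10.4 CPM in Reactivated and 30.9 CPM in E5.5. Etv4, a target of the pathway, was at 68.1 and 17.5 CPM, and Fgf3 at 22.3 and 5.90 CPM. The cytosolic chaperone list leaned upward, with a median log2 ratio of 0.29, and Hspd1, the mitochondrial chaperonin, was at 504 and 874 CPM. Hspb1, a small heat shock protein, went the other way, at 771 and 216 CPM. Of 18 immediate early genes 4 were at least 2-fold lower, among them Atf3 at 47.9 and 10.5 CPM, and 1 was higher, Cyr61, at 73.2 and 181 CPM. Fos was at 55.8 and 57.5 CPM. Among coagulation and protease control genes, the membrane protease Tmprss2 was at 10.85 and 239 CPM and coagulation factor F5 at 0.638 and 47.4 CPM, whereas the protease inhibitor Timp1 was at 38.1 and 8.90 CPM and the urokinase receptor Plaur at 71.9 and 21.3 CPM. The genes in this paragraph that the naming rule did not pick were chosen after their values were seen.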
